A study of Arabidopsis thaliana with 9 samples.

Results

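Jacalin-like lectin genes encode proteins with a carbohydrate-binding fold first known from the jackfruit seed lectin, and most are annotated in Arabidopsis as mannose-binding lectins. The 10 genes described here were taken by locus identifier, under a rule that uses no measured value, though with earlier results of these data known. All 10 were measured, each by 1 probe set annotated to that gene alone, of 16548 genes named on the array in all. Of the 10, 8 lie in the chromosome 1 cluster from AT1G52000 to AT1G52130, AT1G60110 lies elsewhere on chromosome 1, and AT5G28520 lies on chromosome 5. Roots of seedlings kept upright for 2 weeks on MGRL agar that contained sucrose were profiled on 9 Affymetrix arrays, 3 for Col-0 (wild type), 3 for myb36-1 and 3 for myb36-2. The mutants are named for MYB36, which encodes a MYB-type regulator needed in the endodermis for genes that build the Casparian strip, and no line had a treatment. The labels used here give neither the kind of mutation in each line nor whether replicate arrays were grown separately. The p-values therefore measure the spread between these arrays, which may be technical. Whole roots were extracted, so fewer cells of a type and less RNA per cell cannot be told apart.

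Jacalin-like lectins of plants are known for binding sugars on glycoproteins, and several family members carry repeated lectin domains. In the Arabidopsis root and seedling, relatives of these genes are known as partners of PYK10, a beta-glucosidase stored in ER bodies, which are rod-shaped compartments of the endoplasmic reticulum. Some of these relatives enlarge the aggregates that PYK10 forms when cells break, and others keep them small. The functions of the 10 genes themselves are less well known and are not described further.

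The deposited values are log2 expression values made by the authors with RMA, which corrects background, equalises array distributions and summarises each probe set. A probe set's level also depends on its probes, so values are compared between lines for 1 gene and not between genes. The arrays of myb36-2 stood apart, with a median of 4.86 ± 0.01 (SD, n = 3) over all deposited values against 4.61 ± 0.02 in Col-0 and 4.60 ± 0.01 in myb36-1. Over the tested probe sets, each myb36-2 array shared 0 identical values with each array of the other lines. Pairs among the Col-0 and myb36-1 arrays shared 20 to 65, and pairs within myb36-2 shared 32 to 50. Whether the lines were processed apart was not tested. In these files the array scale and the myb36-2 line cannot be told apart. Calls that involve myb36-2 are therefore given as deposited and on a common scale, meaning after quantile normalisation of the tested probe sets over all 9 arrays. That step equalises the arrays but does not redo the summary of each probe set. Over 31325 tested probe sets the median log2 difference of myb36-2 from Col-0 was 0.16 as deposited and -0.01 on the common scale. This shift was 0.21 for probe sets with mean values under 4, where 6 of the 10 genes lie, and 0.08 for those of 8 and over, where 2 lie. The shares of all tested probe sets that fell in limma were 0.268% in myb36-1 and 2.02% in myb36-2 as deposited. They were 0.243% and 5.39% on the common scale. Of 4 measured Casparian strip genes all 4 fell in myb36-1 and myb36-2 in limma on both scales. As deposited, AT2G39430 (the dirigent gene DIR9) was at -3.07 and -3.84, and AT3G55230 (the dirigent gene DIR24) at -2.20 and -5.31. AT1G44970 (a peroxidase gene) was at -1.45 and -0.83, and AT1G61590 (the kinase gene SGN1) at -1.24 and -1.34. On the common scale the log2 differences of the 4 genes in myb36-2 ran from -5.48 to -1.09. MYB36 itself was not analysed here. The root hair genes EXPA7 and EXPA18, among 5 measured of 11 root markers, had Col-0 means of 6.76 and 7.78. The other 3 root markers, AT1G62500, AT5G53730 and AT2G34140, had Col-0 means of 3.10, 4.50 and 5.06, below the tested median. As deposited 2 of the 5 rose in myb36-2, AT1G62500 by 0.63 and AT5G53730 by 0.44, where 19.3% of all tested probe sets rose. Neither passed on the common scale. The summed level of the 5 root markers was 8.49 to 8.78 in Col-0, 8.49 to 8.77 in myb36-1 and 8.70 to 8.84 in myb36-2. Of 12 leaf markers 3 were measured. Their means over all 9 arrays ran from 6.63 to 7.55. Their summed level was 8.70 to 9.12 in Col-0, 8.38 to 8.53 in myb36-1 and 8.47 to 8.60 in myb36-2. RCA and LHB1B2 fell in myb36-2 as deposited, where 2.02% of all tested probe sets fell. On the common scale 2 of the 3 fell, against 5.39%. In myb36-1 0 of the 3 passed, with a lowest difference of -0.76 as deposited. RMA values have no zero, and the part of leaf transcripts in the results below was not tested.

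In myb36-1, 0 of the 10 jacalin-like lectin genes passed the test against Col-0 in limma (adjusted p under 0.05 over all tested probe sets), where 0.495% of all tested probe sets passed, 0.227% higher and 0.268% lower. The same count of 0 held on the common scale, where 0.472% passed. At an unadjusted p under 0.05, 1 of the 10 passed, AT1G60110, against 11% of all tested probe sets. In myb36-2, 2 of the 10 rose as deposited, AT1G60110 and AT5G28520, where 21.3% of all tested probe sets passed, 19.3% higher and 2.02% lower. The same 2 genes were those under an unadjusted p of 0.05, against 37% of all tested probe sets. After quantile normalisation 0 of the 10 passed in myb36-2 in limma, against 10.1% of all tested probe sets, and 1 passed at an unadjusted p under 0.05, against 27.2%. The 2 calls among 10 genes are thus near the share over the whole array. None of the 10 passed in both mutants with the same sign, where 0.418% of all tested probe sets did. As deposited, the arrays of a mutant and of Col-0 did not overlap for 0 of the 10 genes in myb36-1 and 3 in myb36-2, against 18.2% and 41.1% of all tested probe sets. The common scale gave 0 and 0, against 18.1% and 32.1%. Between the mutants the arrays did not overlap for 1 gene on each scale, AT5G28520 as deposited, against 38%, and AT1G52070 on the common scale, against 26.1%.

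**Figure D1:**
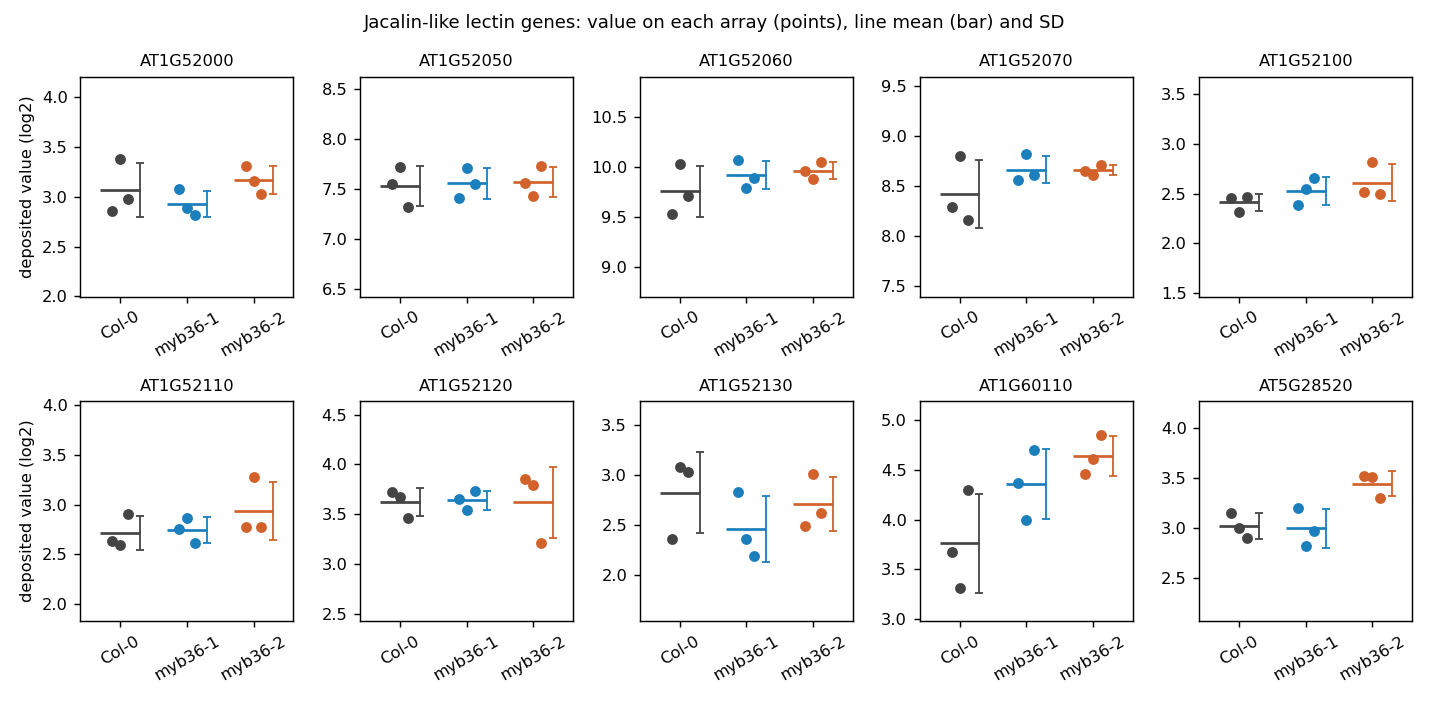
Deposited log2 value (vertical axis, the same 2.2-unit span in each panel) of the 10 jacalin-like lectin genes on the 3 arrays each of Col-0, myb36-1 and myb36-2; points are arrays, horizontal bars line means and whiskers the SD. The myb36-2 arrays lie above all Col-0 arrays for AT1G52100, AT1G60110 and AT5G28520, and the lines overlap for the other 7 genes.

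The cluster genes AT1G52050, AT1G52060 and AT1G52070 follow each other in gene order and were the members with values above the median of the tested probe sets, 5.15. AT1G52050 had values of 7.55, 7.72 and 7.32 in Col-0, 7.41, 7.71 and 7.55 in myb36-1, and 7.56, 7.43 and 7.73 in myb36-2. The ranges of the 3 lines overlapped almost wholly. Its log2 difference from Col-0 was 0.03 in myb36-1 and 0.04 in myb36-2, each ± 0.13 (SE, n = 3 per line), with 95% intervals of -0.26 to 0.32 and -0.25 to 0.34. The sign in myb36-2 turned on the common scale, at -0.09 ± 0.12.

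AT1G52060 had values of 9.53, 10.03 and 9.71 in Col-0, 10.07, 9.79 and 9.89 in myb36-1, and 9.96, 9.88 and 10.05 in myb36-2. The mutant arrays lay within the upper part of the Col-0 range or just above it. The differences of 0.16 ± 0.13 in myb36-1 and 0.21 ± 0.13 in myb36-2 did not pass, with 95% intervals of -0.14 to 0.46 and -0.09 to 0.51. On the common scale the myb36-2 difference was 0.11 ± 0.13 (adjusted p in limma of 0.63).

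AT1G52070 had values of 8.29, 8.80 and 8.17 in Col-0, 8.56, 8.82 and 8.61 in myb36-1, and 8.65, 8.61 and 8.71 in myb36-2. Col-0 replicate 2 lay high beside the other Col-0 arrays, and the same array was the highest of Col-0 for all 3 of these neighbouring genes. The differences were 0.25 ± 0.15 in myb36-1 and 0.24 ± 0.15 in myb36-2, neither passing (adjusted p in limma of 0.62 and 0.29). On the common scale the myb36-2 difference was 0.11 ± 0.15 (adjusted p in limma of 0.66). Without Col-0 replicate 2, AT1G52070 passed in myb36-2 as deposited, at 0.43 (adjusted p in limma of 0.037). Its myb36-1 value of 0.44 did not pass then (adjusted p in limma of 0.23). Over the 9 omissions of 1 array its myb36-2 difference ran from 0.11 to 0.43, with adjusted p in limma of 0.037 to 0.66. The myb36-1 and myb36-2 means of these 3 genes differed by at most 0.05 as deposited. The deposited difference between the mutants had 95% intervals of -0.31 to 0.28, -0.35 to 0.25 and -0.34 to 0.36 for AT1G52050, AT1G52060 and AT1G52070. On the common scale myb36-1 minus myb36-2 was 0.13, 0.06 and 0.14 for these genes, none passing.

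The remaining 5 cluster genes had values of 2.20 to 3.85 on all 9 arrays, toward the lower end of the deposited range, and the files hold no call of detection for them. Differences of dim probe sets can understate differences of the transcript. AT1G52000 was at 2.86, 3.38 and 2.97 in Col-0, 3.07, 2.88 and 2.82 in myb36-1, and 3.30, 3.16 and 3.02 in myb36-2. The lines overlapped, and the differences of -0.14 ± 0.14 and 0.09 ± 0.14 did not pass. The myb36-2 value of AT1G52000 turned to -0.16 ± 0.15 on the common scale.

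AT1G52100 was at 2.46, 2.31 and 2.46 in Col-0, 2.38, 2.54 and 2.66 in myb36-1, and 2.51, 2.82 and 2.49 in myb36-2. All myb36-2 arrays lay above all Col-0 arrays as deposited, by a narrow margin. The difference of 0.20 ± 0.11 did not pass (adjusted p in limma of 0.24), it was close to the median shift of 0.21 at such levels, and on the common scale it was 0.04 with overlapping arrays.

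AT1G52110 was at 2.63, 2.59 and 2.91 in Col-0, 2.76, 2.87 and 2.61 in myb36-1, and 2.77, 3.27 and 2.77 in myb36-2. A single array, myb36-2 replicate 2, stood above the rest. The differences were 0.03 ± 0.15 and 0.23 ± 0.15, and 0.01 in myb36-2 on the common scale.

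AT1G52120 was at 3.72, 3.68 and 3.46 in Col-0, 3.65, 3.54 and 3.73 in myb36-1, and 3.85, 3.79 and 3.21 in myb36-2. Replicate 3 of myb36-2 was the lowest of the 9 arrays and replicate 1 the highest. The line means were 3.62, 3.64 and 3.62, and on the common scale myb36-2 stood at -0.30 ± 0.16 from Col-0 without passing (adjusted p in limma of 0.26).

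AT1G52130 was at 2.36, 3.08 and 3.03 in Col-0, 2.84, 2.36 and 2.20 in myb36-1, and 2.49, 3.01 and 2.63 in myb36-2. The spread within Col-0, 0.40 (SD, n = 3), was wider than the difference of either mutant from Col-0, -0.36 ± 0.23 and -0.12 ± 0.23. Its 95% intervals, -0.89 to 0.16 and -0.64 to 0.41, leave room for a fall of more than 0.5 in each mutant.

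Outside the cluster, AT1G60110 was at 3.68, 3.32 and 4.30 in Col-0, 4.37, 4.00 and 4.70 in myb36-1, and 4.46, 4.61 and 4.85 in myb36-2. All myb36-2 arrays lay above all Col-0 arrays, whereas the lowest myb36-1 array lay below the highest Col-0 array. The gene rose by 0.88 ± 0.25 in myb36-2 (adjusted p in limma of 0.038), and its myb36-1 value of 0.59 ± 0.25 did not pass (adjusted p in limma of 0.44). With all arrays on the common scale these were 0.59 ± 0.24 (adjusted p in limma of 0.15) and 0.58 ± 0.24 (0.41), with overlapping arrays in both. The line means were ordered Col-0, myb36-1, myb36-2 as deposited, and myb36-1 minus myb36-2 was -0.28 ± 0.25 with a 95% interval of -0.85 to 0.28. Its myb36-2 call failed without Col-0 replicate 1 (adjusted p in limma of 0.097), Col-0 replicate 2 (0.11), myb36-1 replicate 1 (0.051) or myb36-2 replicate 1 (0.057), 2 (0.082) or 3 (0.11).

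AT5G28520 was at 3.15, 3.0 and 2.90 in Col-0, 3.20, 2.82 and 2.97 in myb36-1, and 3.52, 3.52 and 3.30 in myb36-2. All myb36-2 arrays lay above all arrays of the other lines as deposited. It rose by 0.43 ± 0.12 in myb36-2 (adjusted p in limma of 0.035), and its myb36-1 value was -0.02 ± 0.12. Its myb36-2 value on the common scale was 0.15 ± 0.12 (adjusted p in limma of 0.45), with overlapping arrays. Its myb36-2 call failed without Col-0 replicate 2 (adjusted p in limma of 0.089), Col-0 replicate 3 (0.098), myb36-1 replicate 3 (0.051) or myb36-2 replicate 1 (0.088) or 2 (0.094).

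**Figure D2:**
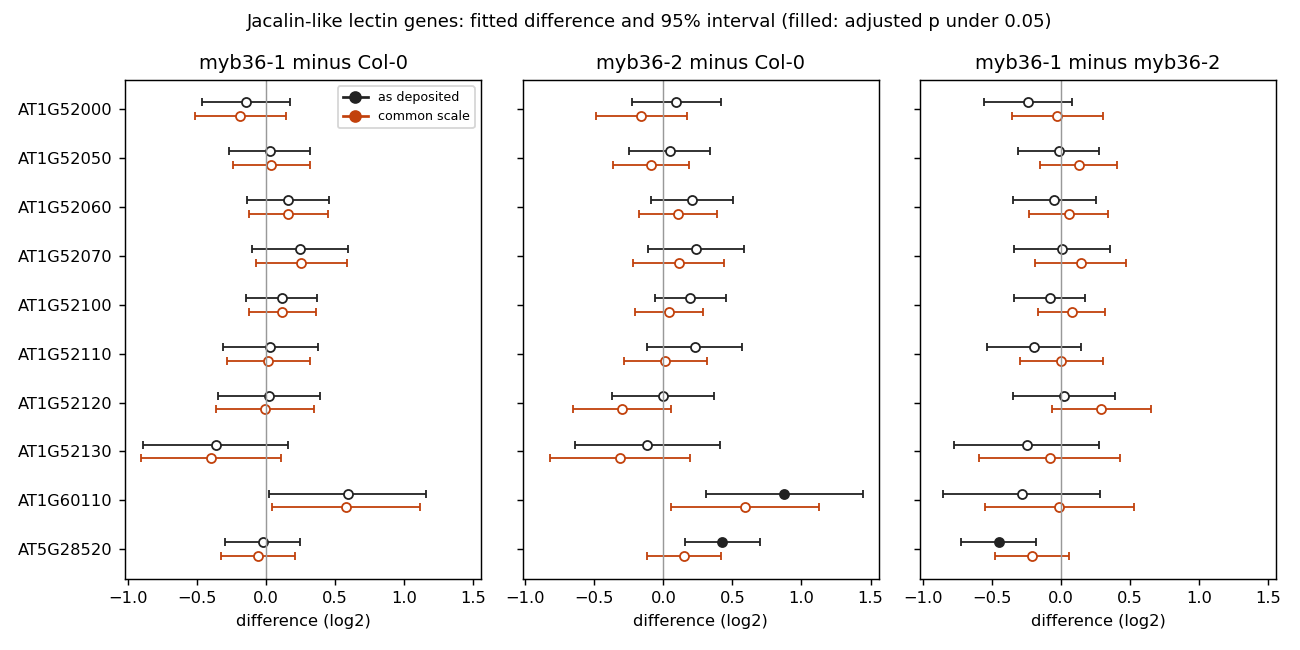
Fitted log2 difference (points) and 95% interval (lines) of the 10 jacalin-like lectin genes for myb36-1 minus Col-0, myb36-2 minus Col-0 and myb36-1 minus myb36-2, as deposited and on the common scale; filled points passed at an adjusted p under 0.05. The filled points are AT1G60110 (0.88) and AT5G28520 (0.43) in myb36-2 and AT5G28520 (-0.45) between the mutants, all of them as deposited.

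The mutants were compared directly because a value past the threshold in 1 line and not in the other does not show that they differ. AT5G28520 was the 1 of 10 genes that differed, lower in myb36-1 by -0.45 ± 0.12 as deposited (adjusted p in limma of 0.036), where 15.4% of all tested probe sets passed, with myb36-1 the higher in 0.926% and the lower in 14.5%. It was also the 1 gene at an unadjusted p under 0.05, against 33.2%. The common-scale difference was -0.21 ± 0.12 (adjusted p in limma of 0.37), and 0 of the 10 differed there in limma, against 4.15% of all tested probe sets, also at an unadjusted p under 0.05, against 20.6%. That call failed without Col-0 replicate 2 (adjusted p in limma of 0.052), myb36-1 replicate 2 (0.11) or 3 (0.095), or myb36-2 replicate 1 (0.087) or 2 (0.095).

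Over the 10 genes the median log2 difference was 0.03 in myb36-1, against -0.01 over all tested probe sets. For myb36-2 the median was 0.20 as deposited, against 0.16, and 0.03 after common scaling, against -0.01. The comparisons of both mutants share the Col-0 arrays. The 95% intervals of the 10 genes ran from -0.89 at the lowest to 1.16 at the highest in myb36-1, and from -0.82 to 1.13 in myb36-2 on the common scale.

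Gene order was used to set the 10 genes beside their neighbours, with the neighbours taken as the 3 nearest measured genes on either side. In the AT1G52 cluster, the 7 other measured genes in and around it were at -0.15 to 0.31 in myb36-1, none passing in limma, and 2 of them rose in myb36-2 as deposited, where 19.3% of all tested probe sets rose. Of these, TRZ3, a tRNA-processing endonuclease gene, rose by 0.72 as deposited and by 0.53 on the common scale, and AT1G51990 rose by 0.45 as deposited and was at 0.24 without passing on the common scale. AR791, which lies between AT1G52070 and AT1G52100, was at 0.01 and -0.14 without passing. The myrosinase-binding protein genes MBP1 and MBP2, also jacalin-type and inside the cluster, were not analysed here.

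AT1G60110 lies between 2 other jacalin-related genes, AT1G60095 and AT1G60130. AT1G60095 was at 3.30, 3.15 and 3.59 in Col-0, 4.16, 4.00 and 4.42 in myb36-1, and 5.30, 4.61 and 5.43 in myb36-2. As deposited the 3 lines did not overlap, in the order Col-0, myb36-1, myb36-2. Non-overlap with Col-0 held for 18.2% of all tested probe sets in myb36-1 and 41.1% in myb36-2, and between the mutants for 38%. On the common scale the arrays of both mutants still lay above all Col-0 arrays, but those of the mutants overlapped. AT1G60095 rose by 1.77 ± 0.21 in myb36-2 (adjusted p in limma of 0.0016) and by 1.48 ± 0.22 on the common scale (0.0053), and this call held without each of the 9 arrays in turn. Its myb36-1 value of 0.84 ± 0.21 did not pass (adjusted p in limma of 0.185). It differed between the mutants as deposited, at -0.92 ± 0.21 (adjusted p in limma of 0.023), but not on the common scale, at -0.66 ± 0.22 (0.131). That difference as deposited was lost without myb36-1 replicate 1 or 2 or myb36-2 replicate 1 or 3, with adjusted p in limma of up to 0.072.

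AT1G60130 was at 3.33, 3.02 and 3.13 in Col-0, 3.61, 3.71 and 3.97 in myb36-1, and 3.32, 2.94 and 3.82 in myb36-2. The myb36-1 arrays lay above all Col-0 arrays, and the difference of 0.60 ± 0.20 did not pass (adjusted p in limma of 0.32). The 6 other measured genes around these 3 were at -0.06 to 0.12 in myb36-1 and 0.04 to 0.36 in myb36-2, none passing in limma. Probe sequences were not used here, so shared signal between neighbouring copies of this family, in either region, was not tested.

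**Figure D3:**
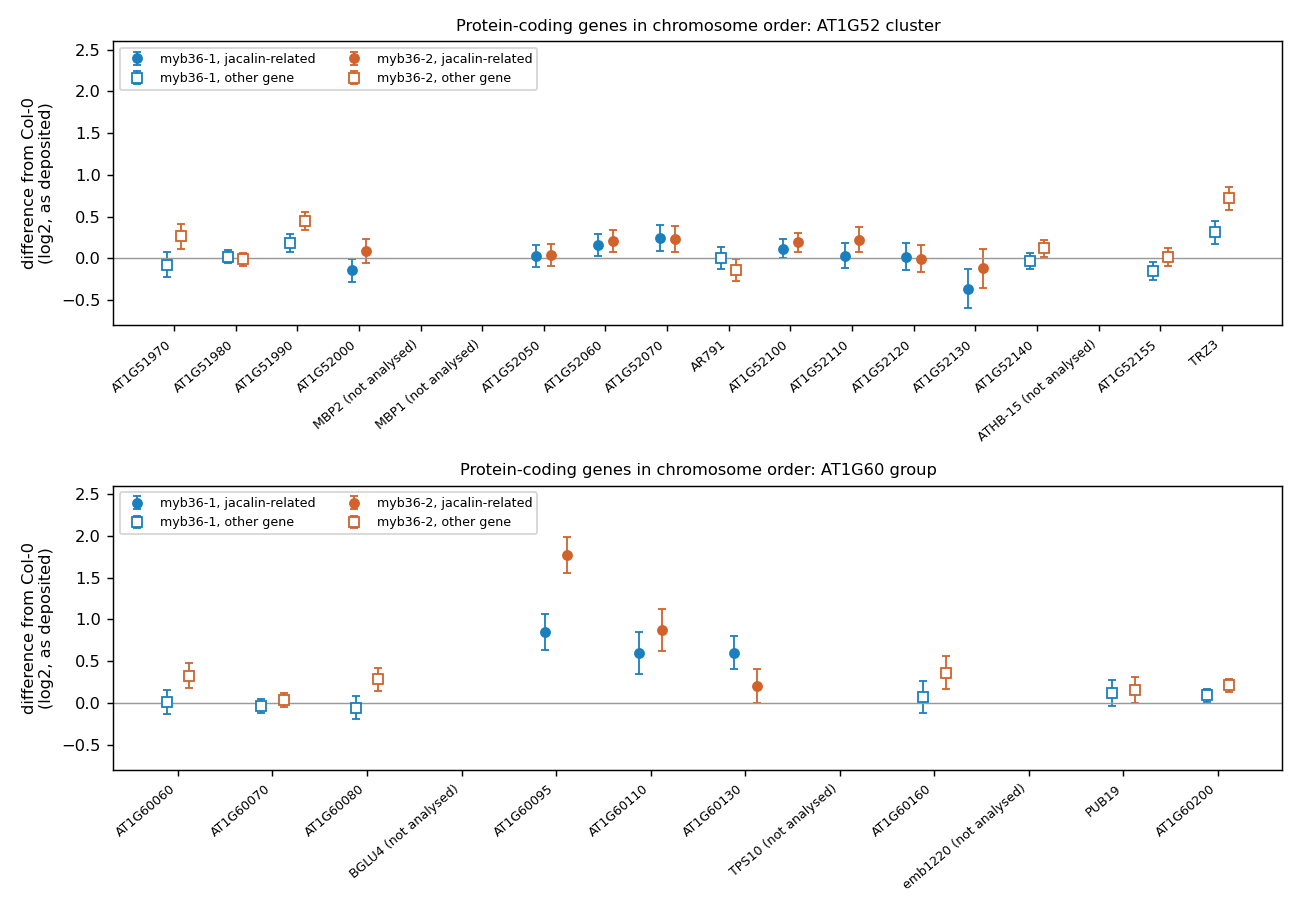
Log2 difference from Col-0 as deposited (points, ± SE) of protein-coding genes in chromosome order around the AT1G52 cluster (top) and around AT1G60110 (bottom), for myb36-1 and myb36-2; filled circles are jacalin-related genes and open squares other genes. The cluster genes lie between -0.36 and 0.25, and AT1G60095 and AT1G60110 stand at 1.77 and 0.88 in myb36-2.

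The genes whose pattern over the 9 arrays was most like that of AT1G60110 were sought among 16547 others, after centring each gene on its own mean. AGL49, a MADS-box gene, was nearest, with a root mean square distance of 0.17 on the log2 scale over a range of 1.53 in AT1G60110. AGL49 had line means of 5.12, 5.47 and 6.002 in Col-0, myb36-1 and myb36-2, and 6 protein-coding genes lie between it and AT1G60110. AT5G46670 followed at 0.18, with line means of 3.21, 3.47 and 3.96. AT5G42490 stood at 0.19, with means of 2.70, 3.03 and 3.37. Their nearness was the ground of their choice and is a description of the deposited values. On the common scale the myb36-1 and myb36-2 means of AT1G60110 were 4.45 and 4.46, and the myb36-2 difference of AGL49 went from an adjusted p in limma of 0.020 as deposited to 0.074.

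The wider jacalin-related family was described from a list of 37 further genes, of which 25 were measured. In myb36-1, 0 of the 25 passed in limma, against 0.495% of all tested probe sets, and 7 passed at an unadjusted p under 0.05, against 11%. In myb36-2, 9 rose and 0 fell as deposited, 36% of the 25 against 21.3% of all tested probe sets, and on the common scale 2 rose and 1 fell, 12% against 10.1%, of which 4.66% were higher and 5.39% lower. Their median difference in myb36-2 was 0.23 as deposited and 0.07 on the common scale, against 0.16 and -0.01 over all tested probe sets. Of the 25, 19 had means below the tested median. As deposited, 23.2% of tested probe sets with means under 4 and 28.9% of those from 4 to 6 passed in myb36-2. The median differences at these levels were 0.21 and 0.20.

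The calls shared by the deposited and the common scale in myb36-2 were AT1G60095 and AT5G49860, against 6.68% of all tested probe sets with a call on both. AT5G49860 was at 2.92, 3.06 and 3.0 in Col-0, 3.17, 3.07 and 3.25 in myb36-1, and 3.56, 3.69 and 3.67 in myb36-2. The myb36-2 arrays lay above all others, and the rise was 0.65 ± 0.08 as deposited (adjusted p in limma of 0.0019) and 0.36 ± 0.08 on the common scale (0.022). The other 7 rose as deposited only, AT5G49870 by 0.94, AT5G35950 by 0.71, AT3G21380 by 0.66, AT5G35940 by 0.63, AT2G43730 by 0.49, AT5G46000 by 0.38 and JAL33 by 0.35. Of the 9 calls as deposited, those of AT1G60095, AT3G21380, AT5G35950 and AT5G49860 held without each array in turn. Those of AT2G43730, JAL33, AT5G35940, AT5G46000 and AT5G49870 were each lost without some arrays, with adjusted p in limma of up to 0.121. The 1 that fell on the common scale, AT1G61230, was at -0.32 there and at -0.03 as deposited.

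AT5G35940 differed between the mutants on both scales, as 2.89% of all tested probe sets did. It was at 4.86, 5.33 and 5.12 in Col-0, 4.32, 4.48 and 4.43 in myb36-1, and 5.98, 5.38 and 5.84 in myb36-2. As deposited the 3 lines did not overlap, with myb36-1 below Col-0 and myb36-2 above it. Such non-overlap with Col-0 held for 18.2% of all tested probe sets in myb36-1 and 41.1% in myb36-2. On the common scale the myb36-2 and Col-0 arrays of AT5G35940 overlapped, at 0.42 ± 0.17 (adjusted p in limma of 0.14). The difference of myb36-1 from myb36-2 was -1.33 ± 0.17 (adjusted p in limma of 0.0028) and -1.097 ± 0.17 on the common scale (0.011), while -0.69 ± 0.17 from Col-0 in myb36-1 did not pass (adjusted p in limma of 0.15). Between the mutants 7 of the 25 (28%) differed as deposited, all with myb36-1 the lower, where 15.4% of all tested probe sets passed and 14.5% had myb36-1 the lower, against 2 after common scaling (where 2.19% of all tested probe sets were higher and 1.97% lower), AT5G35940 and AT5G38550, the latter higher in myb36-1 by 0.44 ± 0.09.

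**Figure D4:**
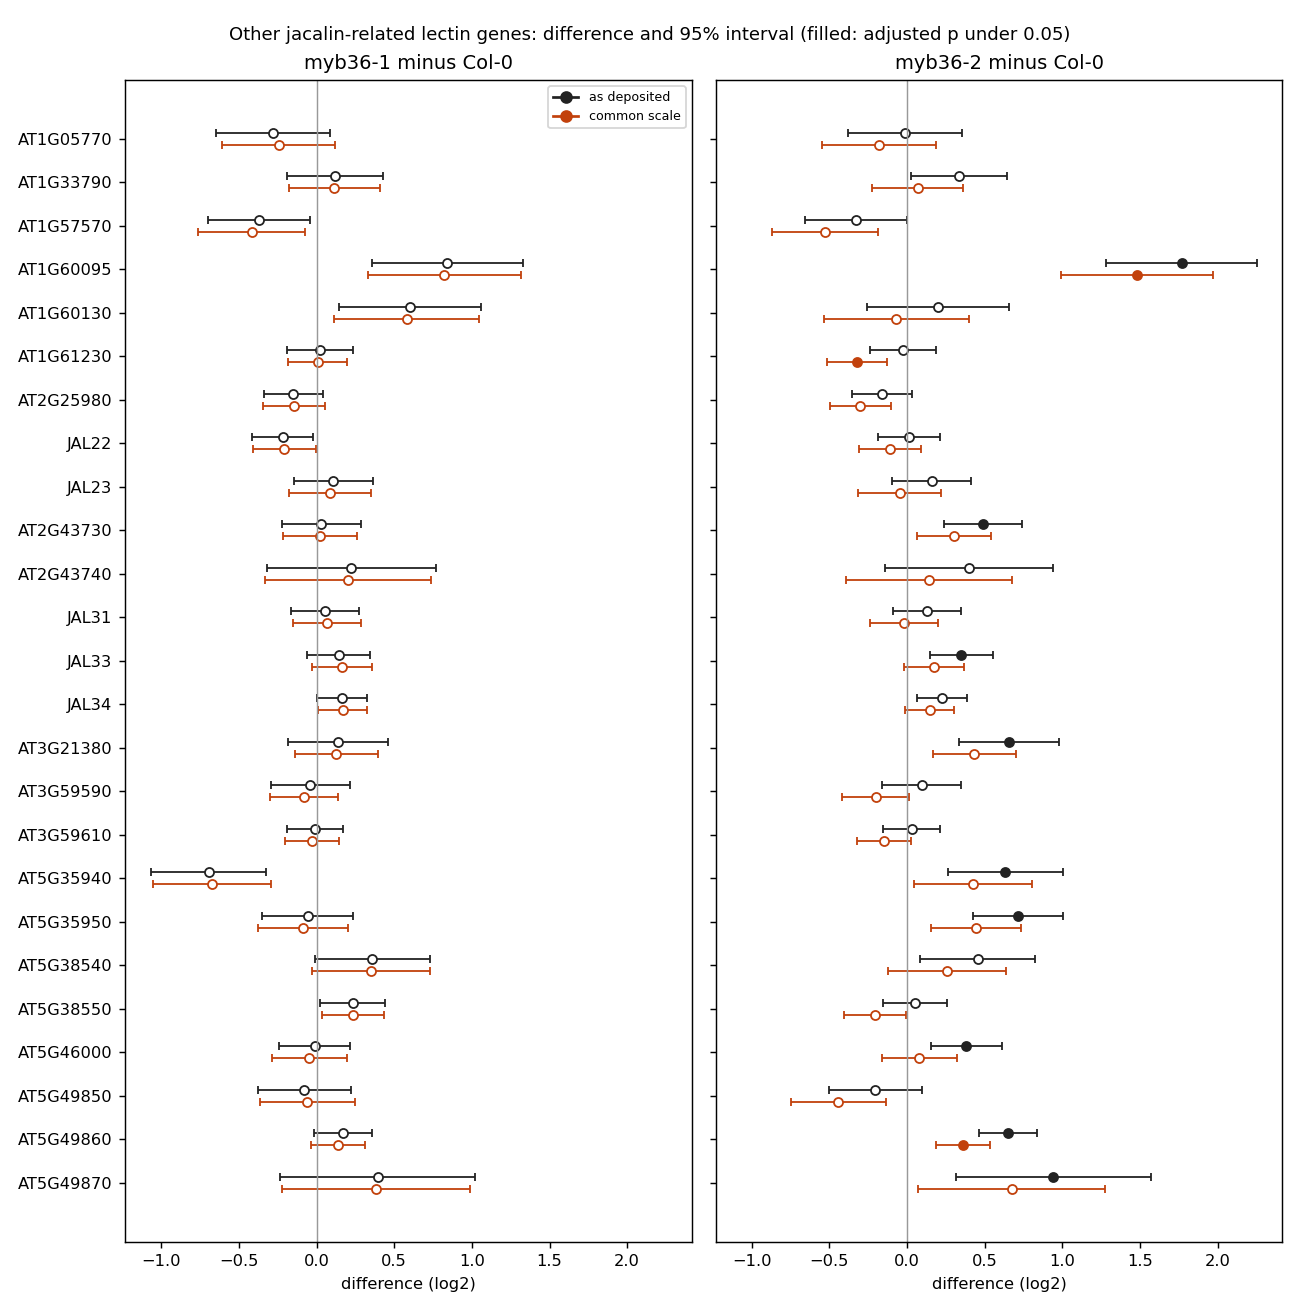
Log2 difference from Col-0 (points) and 95% interval (lines) of the 25 other measured jacalin-related lectin genes in myb36-1 and myb36-2, as deposited and on the common scale; filled points passed at an adjusted p under 0.05. No point is filled in myb36-1, 9 are filled in myb36-2 as deposited, and AT1G60095, AT5G49860 and AT1G61230 are filled on the common scale.

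The PYK10 system has known lectin partners among the relatives. Of lectins known to enlarge the PYK10 aggregate, JAL33 was at 5.79, 5.68 and 5.81 in Col-0, 5.79, 6.03 and 5.89 in myb36-1, and 6.16, 6.15 and 6.02 in myb36-2. It rose by 0.35 ± 0.09 in myb36-2 as deposited (adjusted p in limma of 0.026) and was at 0.17 ± 0.09 on the common scale without passing. JAL34, of the same kind, had differences of 0.16 ± 0.07 and 0.23 ± 0.07 in myb36-1 and myb36-2, neither passing (adjusted p in limma of 0.45 and 0.0503). Its myb36-2 value on the common scale was 0.14 ± 0.07 (adjusted p in limma of 0.22).

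Of lectins known to keep the aggregate small, JAL22 was at -0.22 ± 0.09 in myb36-1 and 0.01 ± 0.09 in myb36-2, and JAL31 at 0.06 ± 0.10 and 0.13 ± 0.10. JAL23, named after its values were seen, was at 0.11 ± 0.11 and 0.16 ± 0.11. None of these passed. On the common scale the myb36-2 values of all 3 were below 0, at -0.11 ± 0.09 for JAL22, -0.02 ± 0.10 for JAL31 and -0.05 ± 0.12 for JAL23. They did not pass there either. AT2G25980, a further relative among those with the highest values, was at -0.15 ± 0.08 and -0.16 ± 0.08 without passing. Its myb36-2 value on the common scale was -0.30 ± 0.09 (adjusted p in limma of 0.062).

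Of 19 listed genes of the PYK10 complex and ER bodies 12 were measured, 3 of them the lectins JAL31, JAL33 and JAL34. In myb36-1, 0 of the 12 passed in limma and 4 at an unadjusted p under 0.05, where the shares over all tested probe sets were 0.495% and 11%. The share of all tested probe sets called in myb36-2 as deposited depended on level. It was 10.7% at means of 8 and over, 17.9% for 6 to 8, 28.9% for 4 to 6 and 23.2% under 4. Of the 12 genes, 1 had a mean below the tested median. In myb36-2, 3 rose and 0 fell as deposited, 25% against 21.3% of all tested probe sets at any level. Trend and robust moderation called 6 of the 12, while its count over all tested probe sets was 6884 against 6669. On the common scale 1 rose, where 10.1% of all tested probe sets passed and 4.66% were higher. That gene, AT1G54010, a GDSL-type lipase-like gene, rose by 0.57 ± 0.09 as deposited and 0.44 ± 0.09 on the common scale, and its call held without each of the 9 arrays in turn. AT3G20380, which encodes a TRAF-like protein, rose by 0.42 ± 0.13 as deposited (adjusted p in limma of 0.049), with a myb36-1 value of 0.49 ± 0.13 that did not pass. Its call was lost on leaving out any array but myb36-2 replicate 2, with adjusted p in limma of up to 0.145.

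PYK10 itself had values of 12.60, 12.66 and 12.54 in Col-0, 12.66, 12.60 and 12.63 in myb36-1, and 12.78, 12.68 and 12.64 in myb36-2. As deposited the arrays overlapped, and the differences of 0.03 ± 0.08 and 0.10 ± 0.08 did not pass. On the common scale PYK10 was at 0.12 ± 0.07 in myb36-2 without passing. The myb36-2 and Col-0 arrays of PYK10 did not overlap there, as for 32.1% of all tested probe sets. NAI2, whose product is needed for ER bodies to form, was at 0.09 ± 0.08 and 0.14 ± 0.08. The beta-glucosidase gene BGLU21 was at -0.13 ± 0.09 and 0.06 ± 0.09, and AT3G20370, a TRAF-like gene, at 0.22 ± 0.09 and 0.26 ± 0.09, none passing. NAI1, the bHLH regulator of ER body genes, named after its values were seen, was at 0.20 ± 0.16 and 0.07 ± 0.16 without passing. On the common scale the myb36-2 values of BGLU21 and NAI1 turned sign, at -0.01 ± 0.10 and -0.10 ± 0.16, neither passing. Over the 12 genes the deposited values gave a median of 0.12 for myb36-1 and 0.18 for myb36-2, the latter being 0.12 after common scaling. The medians over all tested probe sets were -0.01, 0.16 and -0.01. The deposited myb36-2 median was 0.08 for probe sets with means of 8 and over and 0.13 for 6 to 8.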

How the data were processed

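Root RNA was measured on 9 Affymetrix arrays, 3 per line. The deposited values are log2 expression values made by the authors with RMA, per the submitters' processing notes, and whether all arrays were normalised together is not given in the sources used here. Of 38408 probe sets, the first 7083 in identifier order carry no gene annotation and were left out as control-like, which left 31325 tested. Probe sets with several genes named no gene, and symbols and gene order came from a reference table (TAIR10.1) through the gene ID, which matched 16574 of 16722 probe sets with 1 gene.

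The test was limma 3.58.1 in R 4.3.3, a model with a mean for every line across the 9 arrays and empirical Bayes moderation without trend, two-sided, with Benjamini-Hochberg adjustment over all tested probe sets and calls at an adjusted p under 0.05. On simulated data for myb36-1 against Col-0 with 31325 probe sets, 162 of 200 changes of 1 log2 unit were recovered with 7 false calls, and 195 of 200 of 2 units with 6. The simulation had independent noise and no shift between arrays. The largest member difference as deposited was 0.88, so recovery of differences of that size or smaller was not tested. The number of arrays limits precision. Named were all members, all list genes called in either mutant, the brightest 4 others of 2 lists, and the 3 genes nearest in pattern to the member with the largest range of line means, as no member was called on both scales. Members and lists were chosen with earlier results of these data known. The planned search of promoters was not run, since no sequences were used here.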

Additional observations from a re-analysis of the deposited data

Results flagged for a closer look

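AT5G28520 was looked at again because its values differed between the mutant lines by the direct test, with myb36-1 minus myb36-2 at -0.45 as deposited. On the common scale the same difference was -0.21 and did not pass (adjusted p in limma of 0.37), and over all alternatives its adjusted p ran from 0.029 to 0.37.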

How the results depend on the processing

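The scale of the myb36-2 arrays moved most counts. Common scaling left 3149 probe sets in myb36-2 and 1301 between the mutants (6669 and 4836 as deposited), with 0 and 0 members, 3 and 2 other jacalin-related genes, and 1 PYK10 complex and ER body gene in myb36-2. With median scaling these were 4082 and 1724 probe sets, 0 and 0 members, 5 and 2 other jacalin-related genes, and 1 PYK10 gene. With only probe sets of a mean of at least 5, which keeps 3 of the 10 members, they were 3318 and 2290 probe sets, 0 and 0 members, and 3 and 1 other jacalin-related genes. This filter left out AT1G60110 and AT5G28520, the members called as deposited, and most of the other jacalin-related genes. Its counts therefore cover fewer genes. With all deposited probe sets 81 probe sets were called in myb36-1, and 0 members in myb36-2 and between the mutants. Trend and robust moderation called 6 of the 12 measured PYK10 genes in myb36-2, where the main setting called 3. Over all tested probe sets it called 6884 in myb36-2, where the main setting called 6669. The count for this list thus depended on the moderation more than the count over the array did. With only the 6 arrays compared, 94 probe sets were called in myb36-1 and 0 members between the mutants.

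Leaving out each array in turn gave 74 to 126 probe sets in myb36-1, 3890 to 6409 in myb36-2 and 2551 to 4476 between the mutants. Members called were 0 in myb36-1, 0 to 2 in myb36-2 and 0 to 1 between the mutants, other jacalin-related genes 0, 5 to 8 and 3 to 6, and PYK10 genes 0, 1 to 2 and 0. The 0 members called in both mutants stayed at 0 under every alternative.

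No called difference of a member changed sign. Of differences that did not pass, these did. On the common scale AT1G52120 in myb36-1 was at -0.0060, AT1G52000 and AT1G52050 in myb36-2 were at -0.16 and -0.090, and between the mutants AT1G52050, AT1G52060, AT1G52100 and AT1G52110 were at 0.13, 0.058, 0.079 and 0.0032. With median scaling AT1G52000, AT1G52050, AT1G52060 and AT1G52100 in myb36-2 were at -0.12, -0.17, -0.010 and -0.022, and between the mutants AT1G52000, AT1G52050, AT1G52060, AT1G52100 and AT1G52110 were at 0.0023, 0.22, 0.19, 0.16 and 0.047. Without single arrays the myb36-1 difference ran from -0.25 to 0.010 for AT1G52000, -0.077 to 0.12 for AT1G52050, -0.028 to 0.13 for AT1G52110, -0.058 to 0.073 for AT1G52120 and -0.13 to 0.066 for AT5G28520. The myb36-2 difference ran from -0.012 to 0.25 for AT1G52000, -0.061 to 0.14 for AT1G52050, -0.12 to 0.20 for AT1G52120 and -0.35 to 0.013 for AT1G52130. Between the mutants it ran from -0.095 to 0.061 for AT1G52050, -0.12 to 0.017 for AT1G52060, -0.068 to 0.060 for AT1G52070, -0.15 to 0.025 for AT1G52100 and -0.18 to 0.14 for AT1G52120. The cause of these changes was not tested.

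Replicate numbers did not pair the arrays. The 9 correlations of same-numbered deviations from the line means ran from -0.19 to 0.08. Its own number was the best match in both other lines at once for 0 of 9 arrays. With the replicate number as a block, 111, 5784 and 3955 probe sets and 0, 2 and 1 members were called in myb36-1, in myb36-2 and between the mutants. Dim values limit 7 of the 10 members, whose means lie below the tested median.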
